A study of Mus musculus with 140 samples.

Results

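The vomeronasal type 2 receptor genes of the mouse (symbols starting Vmn2r) were examined for silencer intervals in embryonic fibroblasts (MEFs) and embryonic stem cells (mESCs). A silencer is a DNA element that lowers transcription. Members were all protein-coding genes with such a symbol on the autosomes of mm10 in the GENCODE M21 annotation, which gave 121 of 20807 autosomal protein-coding genes. The rule used no measured value, but it was fixed with earlier results of these data known. A member's territory reached from 10 kb before its body to 10 kb after it, and any interval that overlapped this stretch was counted for the member. Vmn2r121 was left out because it lies on the X chromosome. Vmn2r-ps159 and Vmn2r-ps130 carry pseudogene symbols but are annotated as protein coding, so they stayed in.

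The silencers came from Ss-STARR-seq, which places random pieces of the genome in a reporter plasmid, transfects the pool and sequences the reporter RNA next to the plasmid pool itself. The labels describe 140 libraries, of which 20 held input plasmid, 64 held reporter RNA of MEFs and 56 held reporter RNA of mESCs. MEFs were grown in serum and mESCs in medium with LIF and inhibitors, and the labels give no strain, genotype, sex or treatment for either. The values analysed were 2 lists of intervals, 1 for each cell type, both named with the same input libraries. Each interval has a fold that the authors deposited, always above 2. With 1 list for each cell type there was no replicate check. The depth of the lists is unknown, and all confidence intervals below cover counting error alone. A reporter fragment is read outside its chromosome, so a listed interval is a property of the cloned fragment in those cells, and the receptors themselves were not measured.

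V2Rs are class C G protein-coupled receptors with a long extracellular domain, and they detect peptide and protein pheromones in the basal sensory neurons of the vomeronasal organ. These neurons signal through the G protein subunit encoded by Gnao1 and the cation channel Trpc2. A neuron expresses a chosen V2R of the large families together with a broadly expressed receptor of family C, which comprises Vmn2r1 to Vmn2r7. Neither fibroblasts nor stem cells are known sites of V2R function.

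The members occupied 8 chromosomes and formed 17 clusters when members less than 1 Mb apart were joined. Their merged territories covered 5.96 Mb, or 0.249% of the ungapped autosomes. The sequence was AT-rich and repetitive. GC content was 37.7% against 41.9% over the autosomes, and 50.5% of bases were soft-masked repeats against 33.5%. The receptors are also near copies of each other: the closest other member had a median coding-sequence identity of 95.3% over the 120 members with an alignment, with a range of 72.8% to 99.8%. Uniqueness was measured as the share of 32-mers, sampled every 50 bp, that occur once in the genome. It was 54.7% in the territories and 84.6% over the autosomes.

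The MEF list had 167 intervals in Vmn2r territories and the mESC list had 231. The density was 28.0 intervals per Mb in MEFs (95% exact Poisson interval 23.9 to 32.6), 0.765 times the autosomal 36.6 per Mb. In mESCs it was 38.8 per Mb (33.9 to 44.1), 0.823 times the autosomal 47.1 per Mb. The direction of this difference turned with the denominator. Per Mb of unique sequence the territories held 51.2 MEF intervals against 43.3 over the autosomes, and 70.9 mESC intervals against 55.7. This restricted the length alone, and every interval was still counted, unique or not. Of the 32-mers sampled in member intervals, 64.9% (MEF) and 70.3% (mESC) were unique, beside 85.8% and 83.7% for autosomal intervals. In all, 22 MEF and 30 mESC member intervals had no unique sampled 32-mer. The deficit also rested on 1 cluster on chromosome 7, described below. Without that cluster the ratio to the autosomes was 0.911 in MEFs and 0.982 in mESCs.

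Intervals were unevenly spread over the members. A median member had 1 MEF and 2 mESC intervals, the same medians as over all autosomal protein-coding genes, and the highest counts were 9 and 11, both in Vmn2r7. No MEF interval was listed for 47 members (38.8%, against 29.7% of all genes), no mESC interval for 37 (30.6%, against 22.7%), and none of either list for 32 (26.4%, against 16.2%). Territories of members are longer than those of most genes, with a median of 47.1 kb against 37.6 kb. Among the 13152 genes within the members' range of territory lengths, 22.5% had no MEF interval and 16.1% no mESC interval, and 1378 of the 13152 had neither. Of these 32 members, 22 belonged to the chromosome 7 cluster. Among the 97 members outside it, 10 lacked an interval in both lists, 14 in the mESC list and 24 in the MEF list, so the excess of empty members lay in that cluster. Empty members had a median uniqueness of 11.1%, and members with an interval 67.6%.

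**Figure D1:**
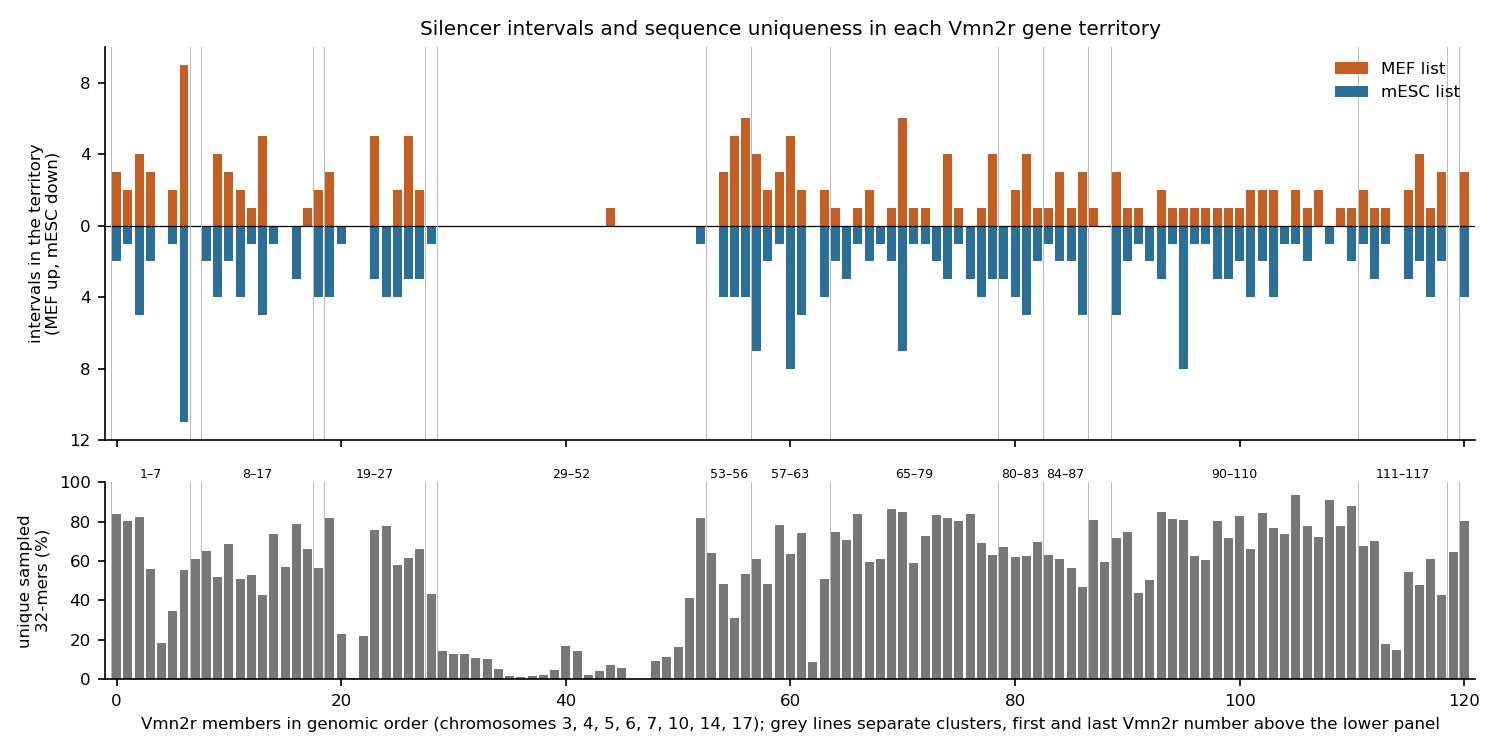
Intervals per Vmn2r territory in genomic order, with MEF counts drawn upward and mESC counts downward (upper panel), above the percentage of sampled 32-mers that are unique in the genome (lower panel). The stretch with almost no bars, Vmn2r29 to Vmn2r52, is also the stretch with the lowest uniqueness, and the tallest bars in both directions belong to Vmn2r7.

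The chromosome 7 cluster from Vmn2r29 to Vmn2r52 (chr7:7231327-10176573, mm10) holds 24 members and 0.985 Mb of territory. It had 1 MEF and 1 mESC interval, which is 1.01 per Mb in each list (0.0257 to 5.65). The 97 members elsewhere had 33.4 MEF intervals per Mb (28.5 to 38.9) and 46.2 mESC intervals per Mb (40.5 to 52.6), so the confidence intervals of the cluster and of the rest did not overlap. The cluster's members are the most alike of the family, with a median closest-member identity of 99.4%. Vmn2r40 and Vmn2r41 are the closest pair at 99.8%, and neither had an interval. Uniqueness was 11.8% over the cluster, and no sampled 32-mer was unique in the territories of Vmn2r46 and Vmn2r47. Per Mb of unique sequence the cluster held 8.60 intervals in each list (0.218 to 47.9). That range includes the autosomal 43.3 of the MEF list and ends below the autosomal 55.7 of the mESC list.

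The same gap was seen when whole 1 Mb bins were tested across the autosomes with a negative binomial model and Benjamini-Hochberg adjustment over 2403 bins. No bin lay at least 50% inside member territories (the highest share was 46.1%), so the 29 bins with any member territory are reported. In MEFs 2 of the 29 had fewer intervals than modelled, where 1.12% of all bins did, and 0 had more (0.0416% of all bins). In mESCs 3 had fewer (1.17% of all bins) and 0 had more (0.0832%). All of the called bins lay in the chromosome 7 cluster. The bin from 8 to 9 Mb had 2 MEF intervals where 36.6 were modelled (adjusted p = 1.03e-04) and 2 mESC intervals where 47.1 were modelled (adjusted p = 1.14e-05). The bin from 9 to 10 Mb had 1 MEF interval (adjusted p = 3.63e-05 by the same test) and 0 mESC intervals (adjusted p = 3.58e-07). The bin from 7 to 8 Mb had 10 mESC intervals (adjusted p = 0.0187) and 12 MEF intervals (adjusted p = 0.274). Uniqueness in these bins was 6.50%, 3.39% and 21.3%. With unique 32-mers as the bin length, 0 of the 29 bins was called in either list. Fewer intervals were then called in 0.208% (MEF) and 0.166% (mESC) of all bins. Bins with so little unique sequence had few intervals modelled at this setting, so a low count there could hardly be called. No conclusion about the gap is drawn from it. Whether short reads could be placed in these copies was not tested.

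**Figure D2:**
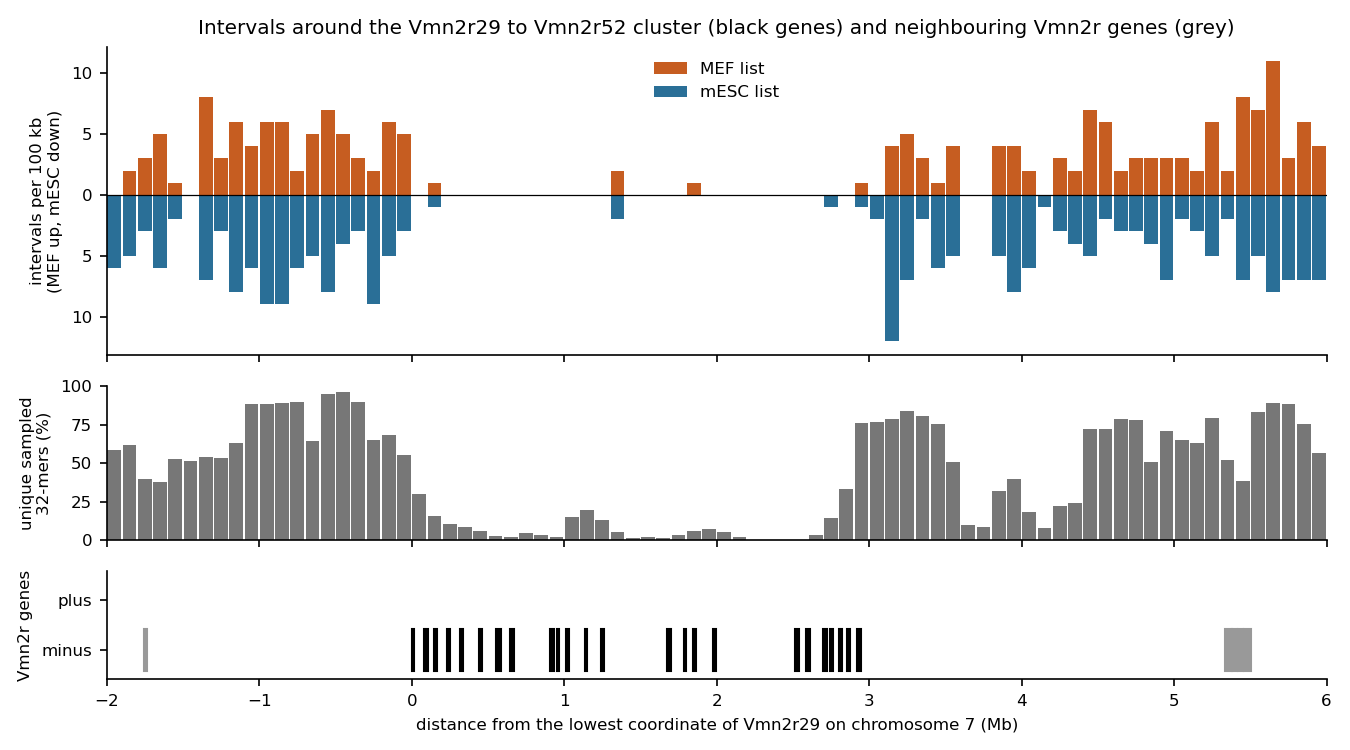
Intervals per 100 kb along chromosome 7 by distance from the lowest coordinate of Vmn2r29 (MEF upward, mESC downward), with the percentage of unique sampled 32-mers and the Vmn2r genes by strand. Of the 29 windows wholly inside the cluster, 26 hold no MEF interval and 26 hold no mESC interval. In the 20 windows before the cluster only 2 lack a MEF and 1 lacks an mESC interval. Gaps leave 55228 and 94772 ungapped bases in the windows from 2.3 and 2.4 Mb.

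The edge of the gap was sharp on the Vmn2r29 side. In the 20 windows of 100 kb before Vmn2r29, MEF intervals numbered 79 and mESC intervals 107, with a median window uniqueness of 63.8%. In the 29 windows inside the cluster there were 4 intervals of each list in all, with a median uniqueness of 4.40%. On the other side, the windows from 2.9 and 3.0 Mb held 1 and 0 MEF intervals and 1 and 2 mESC intervals. Their uniqueness was 76.35% and 77.0%. The window from 3.1 Mb held 4 MEF and 12 mESC intervals. Past the cluster, the windows from 3.6 and 3.7 Mb also held 0 intervals of either list, at 9.85% and 8.50% uniqueness. The 2 intervals that fell in member territories of the cluster are shown because those territories held no other. The mESC interval of the 2 lies in the margin past Vmn2r52, outside the 29 windows. The MEF interval (chr7:9106251-9106351, plus strand, fold 2.21) lies 8.42 kb before the start of Vmn2r38, and the mESC interval (chr7:10185058-10185358, plus strand, fold 2.06) lies 8.64 kb before the start of Vmn2r52. Capitals mark bases outside soft-masked repeats.
Vmn2r38 MEF: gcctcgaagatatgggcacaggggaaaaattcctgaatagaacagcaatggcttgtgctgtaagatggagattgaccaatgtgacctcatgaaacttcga
Vmn2r52 mESC: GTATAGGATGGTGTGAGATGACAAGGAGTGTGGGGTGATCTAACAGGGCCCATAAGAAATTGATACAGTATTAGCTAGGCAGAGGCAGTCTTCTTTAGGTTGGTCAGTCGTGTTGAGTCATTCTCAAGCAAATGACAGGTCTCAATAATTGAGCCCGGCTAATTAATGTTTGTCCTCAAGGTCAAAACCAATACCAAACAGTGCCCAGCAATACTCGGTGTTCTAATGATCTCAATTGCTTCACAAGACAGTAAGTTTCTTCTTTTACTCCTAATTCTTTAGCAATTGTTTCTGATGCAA
The Vmn2r38 interval was masked throughout and had 255 copies in other member territories, none of them listed. The Vmn2r52 interval had no masked base and 1 copy. Vmn2r52 stands at the edge of the cluster, and 82.0% of the sampled 32-mers in its territory are unique.

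Outside that cluster the density varied little for the numbers counted. In the 10 other clusters of at least 4 members, MEF density ran from 23.3 to 57.4 per Mb and mESC density from 38.6 to 71.7 per Mb, with overlapping confidence intervals. Both highest values belonged to Vmn2r84 to Vmn2r87 on chromosome 10, which rest on 8 MEF and 10 mESC intervals. The lowest MEF value belonged to Vmn2r90 to Vmn2r110 on chromosome 17, the second largest cluster with 22 members, where 27 MEF intervals gave 23.3 per Mb (15.4 to 33.9), below the autosomal MEF density. The 49 mESC intervals there gave 42.3 per Mb (31.3 to 56.0), a range that includes the autosomal mESC density. No 1 Mb bin of this cluster was called in either list.

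**Figure D3:**
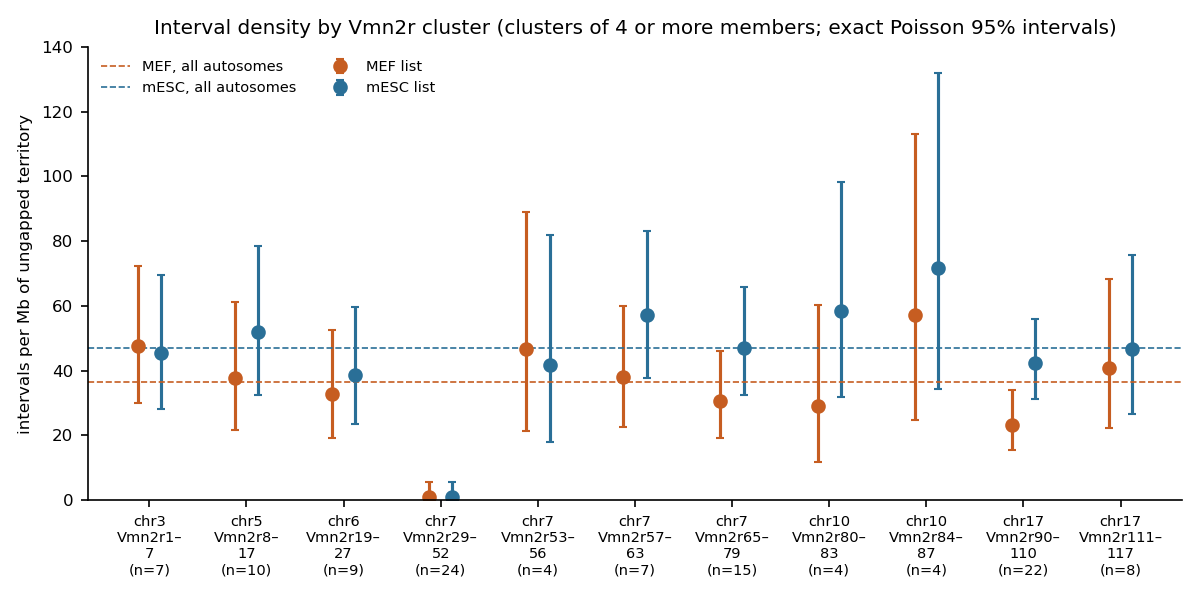
Intervals per Mb of ungapped territory for the 11 clusters with at least 4 members, with exact Poisson 95% intervals, and the autosomal densities as dashed lines (36.6 MEF and 47.1 mESC per Mb). The chromosome 7 cluster of 24 members sits near 1 per Mb in both lists, and the others lie around the autosomal lines.

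Family C, the broadly expressed co-receptors on chromosome 3, had 22 MEF and 21 mESC intervals over its 7 members, or 47.8 per Mb (29.9 to 72.3) and 45.6 per Mb (28.2 to 69.7). It and Vmn2r53 to Vmn2r56 were the 2 clusters of at least 4 members with more MEF than mESC intervals. Vmn2r7, whose body of 159.7 kb is the longest of the family, had 9 MEF and 11 mESC intervals. Vmn2r3 had 4 and 5, Vmn2r1 had 3 and 2, and Vmn2r4 had 3 and 2. Vmn2r2 had 2 and 1, as did Vmn2r6. Vmn2r5 had 0 in both lists and the lowest uniqueness of these 7 genes, 18.4%. Family C held 10 shared intervals of each list. The 90 members outside family C and the Vmn2r29 to Vmn2r52 cluster had 31.9 MEF intervals per Mb (26.9 to 37.6) and 46.3 mESC intervals per Mb (40.2 to 53.0), so their ranges overlapped those of family C.

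Most empty members lay where unique sequence was scarce. Of the 32 empty members, 25 had under 20% unique 32-mers and 7 had more. Of the 27 members with under 20% unique 32-mers, 25 (92.6%) had no interval in either list. Of the 597 other autosomal protein-coding genes in that range, 87.4% had none. These were 522 of 3335 empty other genes, most of which (2475) had at least 70% unique 32-mers. MEF density in this range was 1.76 per Mb in members (0.213 to 6.34) and 3.84 per Mb in other genes (2.95 to 4.90). For the mESC list it was 0.878 per Mb (0.0222 to 4.89) and 5.33 per Mb (4.28 to 6.56). Of the 41 members with at least 70% unique 32-mers, 0 were empty in both lists, against 13.2% of other genes. These shares of empty genes were not matched for territory length. In that range members had 30.3 MEF intervals per Mb (23.2 to 38.8), below the 39.2 per Mb of other genes, and 48.4 mESC intervals per Mb (39.3 to 58.9) beside 50.9. Between 20% and 50% unique, 13 members had 39.2 MEF intervals per Mb (25.6 to 57.4) beside 26.3 in other genes (23.8 to 29.1). Their mESC density was 37.6 per Mb (24.4 to 55.6) beside 35.3 (32.3 to 38.5). Between 50% and 70% unique, 40 members had 36.5 MEF and 49.8 mESC intervals per Mb beside 38.3 and 50.8. Across the 121 members, uniqueness and the density of both lists together had a Spearman rho of 0.46, across the 97 members outside Vmn2r29 to Vmn2r52 a rho of 0.05, and across the 20686 other genes a rho of -0.11. Members of a cluster share sequence and often territory, so these are descriptions.

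**Figure D4:**
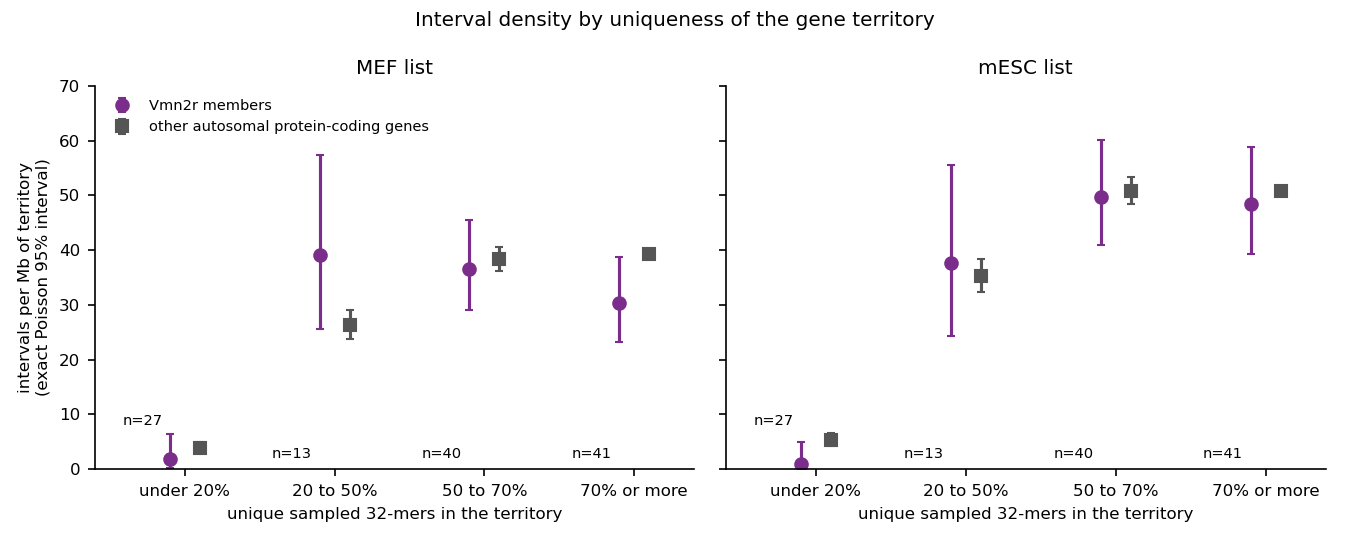
Intervals per Mb of territory for Vmn2r members (circles, number of members beside them) and all other autosomal protein-coding genes (squares) in 4 ranges of 32-mer uniqueness, with exact Poisson 95% intervals. Under 20% both groups lie below 7 per Mb, and above 20% the members lie between 30.3 and 49.8 per Mb.

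Members were also divided by coding-sequence identity to their closest relative. The 29 members with a relative at 98% identity or more had 13.1 MEF intervals per Mb (7.89 to 20.5) and 14.5 mESC intervals per Mb (8.97 to 22.1), and 21 of them were empty. Of these 29 members, 20 belong to the Vmn2r29 to Vmn2r52 cluster. The other 9 had 28.3 MEF intervals per Mb (16.8 to 44.7) and 33.0 mESC intervals per Mb (20.4 to 50.5), with 2 empty, a split made after seeing the data. The 34 members between 95% and 98% had 35.2 and 46.6 per Mb, and the 17 members under 90% had 33.7 and 45.6 per Mb. Outside the chromosome 7 cluster the longest empty territories were those of Vmn2r53 (65.9 kb, 64.2% unique), Vmn2r22 (61.0 kb, 22.0% unique), Vmn2r21 (60.9 kb, 0.657% unique) and Vmn2r118 (54.8 kb, 64.4% unique). In the cluster it was Vmn2r35 (53.7 kb, 1.40% unique). Low uniqueness was therefore not shared by every empty member. Vmn2r118 is also the most divergent of the 120 aligned members, with 72.8% identity to its closest relative.

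Comparing the cell types, 69 members had intervals in both lists, 5 in the MEF list alone and 15 in the mESC list alone. Over all autosomal protein-coding genes, 29.7% had no MEF interval, 22.7% no mESC interval and 16.2% neither. Genes in the mESC list alone thus also outnumbered those in the MEF list alone over all genes. The mESC count was higher in 51 members, the MEF count in 22, and 16 members had equal counts above 0. The same division by higher count over all genes is not given here. Counts of the 2 lists over the 121 members had a Spearman rho of 0.72. The mESC share of all intervals in the territories was 58.0% (exact binomial 95% interval 53.0% to 62.9%) beside 56.2% over the autosomes, so the excess of mESC intervals matched the longer mESC list within counting error. The per-gene exact binomial test of this share, with Benjamini-Hochberg adjustment over 3511 genes with at least 10 intervals, included 6 members and called 0. It called 0 of all genes (0.0%), with 28 genes and 0 members at an unadjusted p under 0.05. Shared intervals entered the counts of both lists, so the 2 counts were not independent as the test assumes. The lack of calls therefore does not show that the shares are equal. The smallest member p-values of this exact test were 0.350 for Vmn2r56, 0.756 for Vmn2r13 and 0.765 for Vmn2r57, each with an adjusted p of 1.0.

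The members with the most intervals were Vmn2r7, Vmn2r60, Vmn2r71, Vmn2r57, Vmn2r13, Vmn2r56, Vmn2r3, Vmn2r55, Vmn2r82 and Vmn2r95. They are receptors of 5 chromosomes and 7 clusters, with territories of 52.5 to 179.7 kb. Vmn2r60 had 5 MEF and 8 mESC intervals, Vmn2r71 had 6 and 7, and Vmn2r57 had 4 and 7. Vmn2r13 had 5 of each list. MEF intervals outnumbered mESC intervals in Vmn2r56, with 6 and 4, and in Vmn2r55, with 5 and 4. These neighbours have overlapping territories. Vmn2r82 had 4 and 5. Vmn2r95 was the most uneven, with 1 MEF and 8 mESC intervals, or 141 mESC intervals per Mb, the highest density of the mESC list among members. It had too few intervals for the test above. With a minimum of 5 intervals, 39 members were tested and 0 were called, as were 0 of all 8118 genes tested. At an unadjusted p under 0.05 there were 65 genes and 0 members. The smallest unadjusted p of a member in this exact binomial test was 0.0874.

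Overlap by at least 1 bp put 84 of the 167 MEF intervals (50.3%, 42.5% to 58.1%) on an mESC interval, beside 47.2% over the autosomes. Of the 231 mESC intervals, 85 (36.8%, 30.6% to 43.4%) overlapped a MEF interval, beside 36.6%. The Vmn2r intervals were thus shared between fibroblasts and stem cells about as often as intervals elsewhere. Among the 87 overlapping pairs the fold was higher in mESCs in 52 and in MEFs in 35, and the folds of a pair had a Spearman rho of 0.52. The scaling of the folds is unknown, and the order within a pair is a property of the deposited values. In the lists used together, the clusters on chromosome 7 from Vmn2r65 to Vmn2r79 and on chromosome 17 from Vmn2r90 to Vmn2r110 held 15 shared MEF intervals each, the most of any cluster.

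By the position of their midpoints, 89 MEF and 118 mESC intervals lay in introns, 50 and 81 in the flanks, and 13 and 16 in untranslated exon sequence. Intron density was 32.5 per Mb in MEFs (26.1 to 40.0) and 43.1 per Mb in mESCs (35.7 to 51.7). Coding exons had 7 MEF intervals, or 24.6 per Mb (9.91 to 50.8), and 3 mESC intervals, which allows 2.18 to 30.9 per Mb. The MEF range overlaps that of the introns, and the mESC range ends below it. V2R genes encode the extracellular domain in several exons and the membrane-spanning part in the last coding exon, and their introns make up most of the gene.

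Start sites carried few intervals by number, and their densities had ranges that overlapped those of introns. The stretches within 1 kb of a start made up 4.51% of the territory. Within 1 kb of an annotated start there were 8 MEF intervals at 7 members, or 29.8 per Mb (12.8 to 58.6), and 13 mESC intervals at 10 members, or 48.4 per Mb (25.7 to 82.7). The MEF members were Vmn2r9, Vmn2r18, Vmn2r23, Vmn2r55, Vmn2r59, Vmn2r68 and Vmn2r116. The mESC members were Vmn2r7, Vmn2r9, Vmn2r13, Vmn2r18, Vmn2r55, Vmn2r80, Vmn2r92, Vmn2r95, Vmn2r108 and Vmn2r116. Overlapping intervals of both lists lay at 4 of them. The strongest was at Vmn2r116, the receptor for the male tear pheromone ESP1, where the MEF fold was 4.08 and the mESC fold 6.16. At Vmn2r18 the folds were 3.33 and 2.95, with a MEF midpoint 0.003 kb before the start site. At Vmn2r9, which had 2 MEF and 3 mESC intervals within 1 kb, the overlapping pairs had folds of 2.17 and 3.07, and of 2.46 and 2.81. At Vmn2r55 the folds were 2.91 and 2.31. The MEF intervals at Vmn2r116 (chr17:23385066-23385366, plus strand, midpoint 0.613 kb after the start, in an intron) and Vmn2r55 (chr7:12685529-12685779, plus strand, midpoint 0.652 kb before the start) are shown because both cell types list them outside untranslated exons. Capitals mark the bases that the overlapping mESC interval also covers, 135 of 300 at Vmn2r116 and 200 of 250 at Vmn2r55.
Vmn2r116 MEF: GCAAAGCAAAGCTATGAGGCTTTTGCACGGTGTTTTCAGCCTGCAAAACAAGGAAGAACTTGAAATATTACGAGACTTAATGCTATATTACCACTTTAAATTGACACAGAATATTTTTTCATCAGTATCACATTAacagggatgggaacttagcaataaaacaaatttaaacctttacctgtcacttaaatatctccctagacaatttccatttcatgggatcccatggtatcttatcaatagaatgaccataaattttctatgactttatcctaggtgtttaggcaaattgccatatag
Vmn2r55 MEF: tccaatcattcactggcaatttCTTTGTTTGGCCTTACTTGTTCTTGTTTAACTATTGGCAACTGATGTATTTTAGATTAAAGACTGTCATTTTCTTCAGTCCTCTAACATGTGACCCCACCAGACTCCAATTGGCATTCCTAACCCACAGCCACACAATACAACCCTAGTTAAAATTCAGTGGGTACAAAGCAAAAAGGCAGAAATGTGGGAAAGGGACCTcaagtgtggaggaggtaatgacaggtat

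Listed folds began just above 2, and most member intervals stayed near that floor. The median fold was 2.47 in MEFs (quartiles 2.20 and 3.00) beside 2.36 over all autosomal intervals of that list, and 2.56 in mESCs (quartiles 2.21 and 3.07) beside 2.41. Folds above 4 were carried by 12 MEF intervals (7.19%, 3.77% to 12.2%) and 22 mESC intervals (9.52%, 6.07% to 14.1%), beside 5.72% and 7.78% over the autosomes, within counting error. Shared intervals had a median of 2.54 against 2.39 for those in the MEF list alone, and 2.67 against 2.43 in the mESC list. The autosomal medians were ordered the same way, with 2.46 against 2.28 in MEFs and 2.53 against 2.35 in mESCs.

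**Figure D5:**
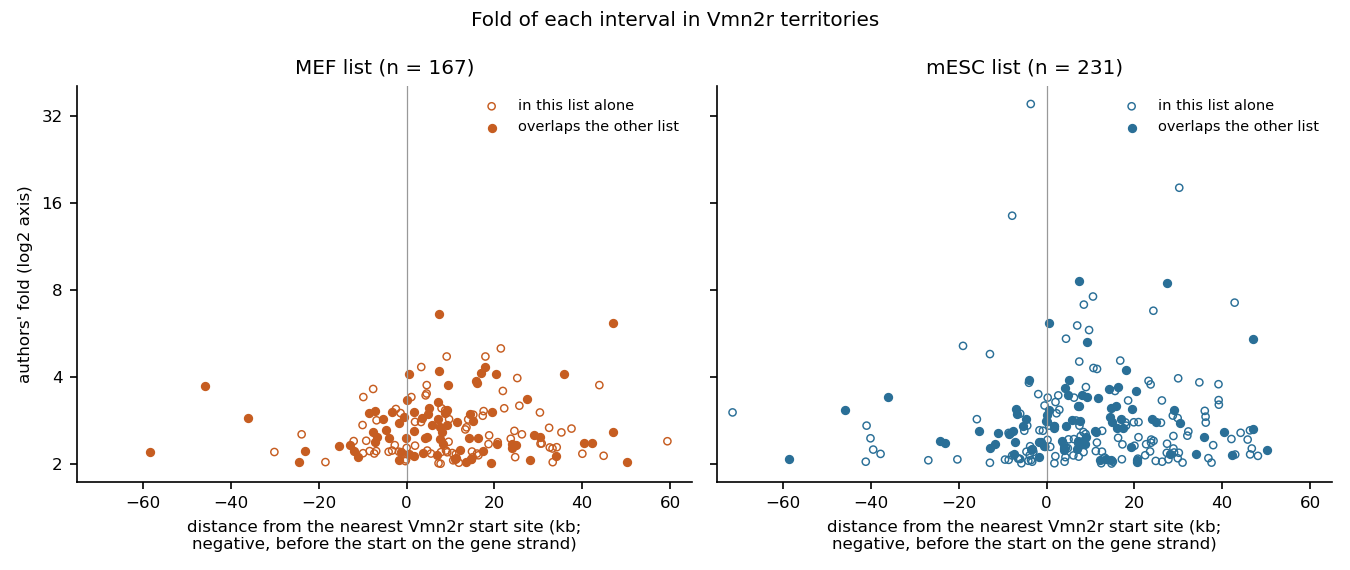
The authors' fold (log2 axis) of each interval in Vmn2r territories against the distance of its midpoint from the nearest Vmn2r start site, for 167 MEF and 231 mESC intervals. Most points lie between 2 and 4 on both sides of the start, and the 3 highest, 35.2, 18.1 and 14.5, are in the mESC list alone.

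The highest MEF fold, 6.61, belonged to an interval in an intron of Vmn2r71 (chr7:85622701-85623001) that also had an mESC interval with a fold of 3.16. A fold of 6.13 followed in untranslated exon sequence of Vmn2r79 (chr7:87043151-87043251), with 5.42 in mESCs. All 3 of the highest mESC folds were in the mESC list alone. An interval 3.61 kb before the start of Vmn2r27 (chr6:124235361-124235561) had a fold of 35.2. It was followed by 18.1 in an intron of Vmn2r78 (chr7:86945229-86945379) and 14.5 in an interval 7.84 kb before the start of Vmn2r68 (chr7:85245551-85245701). The plus-strand sequences are given to show what the strongest fragments look like. In the Vmn2r71 interval capitals mark the 150 bases shared with the mESC interval. In the others they mark bases outside soft-masked repeats.
Vmn2r71 MEF: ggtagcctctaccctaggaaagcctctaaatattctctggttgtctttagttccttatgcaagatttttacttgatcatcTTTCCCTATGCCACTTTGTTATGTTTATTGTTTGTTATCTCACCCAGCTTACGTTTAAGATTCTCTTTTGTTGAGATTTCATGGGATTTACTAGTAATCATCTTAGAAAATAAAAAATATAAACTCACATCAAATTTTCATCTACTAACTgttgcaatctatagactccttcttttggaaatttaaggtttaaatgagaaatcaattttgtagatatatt
Vmn2r27 mESC: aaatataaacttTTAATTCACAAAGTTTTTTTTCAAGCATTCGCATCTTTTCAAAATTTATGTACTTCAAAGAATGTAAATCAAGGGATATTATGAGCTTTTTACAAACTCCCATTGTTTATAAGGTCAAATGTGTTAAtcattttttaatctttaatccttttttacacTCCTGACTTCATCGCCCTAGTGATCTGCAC
Vmn2r78 mESC: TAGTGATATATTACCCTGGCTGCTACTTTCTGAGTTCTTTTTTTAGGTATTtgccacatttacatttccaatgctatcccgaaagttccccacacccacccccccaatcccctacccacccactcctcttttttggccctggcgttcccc
Vmn2r68 mESC: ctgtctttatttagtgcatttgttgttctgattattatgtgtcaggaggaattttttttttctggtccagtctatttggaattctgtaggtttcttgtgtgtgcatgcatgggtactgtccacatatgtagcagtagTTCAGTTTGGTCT
Repeats thus made up most of the Vmn2r78 and Vmn2r68 intervals and a minor part of the Vmn2r27 interval, where 157 of 200 bases were unmasked.

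Copies of the listed sequences elsewhere in the family were mostly not listed. A copy was an alignment of at least 80% of an interval at 80% identity or more at another place in the member territories. Of the MEF intervals, 124 (74.3%) had a copy, as did 166 (71.9%) of the mESC intervals. Of the 10039 copies of MEF intervals, 131 (1.30%) overlapped a MEF interval, where the list covered 0.613% of the territory bases. Of the 13210 copies of mESC intervals, 361 (2.73%) overlapped an mESC interval, at a coverage of 0.833%. Overlap by 1 bp is easier to reach than coverage of a base, so the 2 percentages are not on the same scale. Many of these copies are interspersed repeats. The intervals with the most copies were 50 bp long, masked throughout and in the mESC list: 1 in untranslated exon sequence of Vmn2r102 had 447 copies with 15 listed, and 2 on chromosome 5 (starts 109380170 and 151592909) had 429 and 404, with 13 and 15 listed. Among intervals less than 50% masked, 5 of 244 copies (2.05%, 0.669% to 4.72%) were listed in MEFs and 14 of 307 (4.56%, 2.52% to 7.53%) in mESCs.

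A coding exon gave an example of a receptor sequence listed in more than 1 member. The MEF interval in Vmn2r84 (chr10:130386491-130386691, fold 2.00) lay in the last of its 6 exons, the kind that encodes the membrane-spanning part, and the same stretch of Vmn2r9, a member of the chromosome 5 cluster, lay within a MEF interval with a fold of 3.06. There were 16 copies in all, at 88.4% to 96.5% identity, and 15 of them fell in coding exons. They belong to Vmn2r85 to Vmn2r87, to 9 other members of the chromosome 5 cluster, to Vmn2r88 and Vmn2r89, and to Vmn2r-ps159. The copy in Vmn2r9 was the 1 that was listed. The copy in Vmn2r85 (chr10:130418952-130419152) is closer, at 96.5%, and was not listed. The plus-strand sequences of the listed stretch, the listed copy (chr5:108843635-108843835) and the closer unlisted copy are shown. Capitals mark bases that differ from the Vmn2r84 interval, 20 in Vmn2r9 and 7 in Vmn2r85.
Vmn2r84 listed: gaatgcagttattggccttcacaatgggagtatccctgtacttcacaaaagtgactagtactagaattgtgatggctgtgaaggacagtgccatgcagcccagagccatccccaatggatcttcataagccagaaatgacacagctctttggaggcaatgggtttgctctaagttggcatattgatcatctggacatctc
Vmn2r9 copy listed: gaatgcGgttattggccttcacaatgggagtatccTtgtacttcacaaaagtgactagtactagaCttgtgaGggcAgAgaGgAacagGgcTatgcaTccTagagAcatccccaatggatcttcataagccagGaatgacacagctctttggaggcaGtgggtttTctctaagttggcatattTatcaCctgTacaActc
Vmn2r85 copy: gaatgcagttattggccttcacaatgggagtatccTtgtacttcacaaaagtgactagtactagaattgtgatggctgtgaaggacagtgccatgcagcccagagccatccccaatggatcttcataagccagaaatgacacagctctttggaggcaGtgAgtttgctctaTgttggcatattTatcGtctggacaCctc
The mESC list held none of these 3 places. The highest MEF fold, in Vmn2r71, had its closest copy in an intron of Vmn2r69 (chr7:85407897-85408197, minus strand) at 92.3% identity, and that copy was not listed in MEFs. It is shown on the strand that aligns to the Vmn2r71 sequence above, with the 23 bases that differ in capitals.
Vmn2r69 copy: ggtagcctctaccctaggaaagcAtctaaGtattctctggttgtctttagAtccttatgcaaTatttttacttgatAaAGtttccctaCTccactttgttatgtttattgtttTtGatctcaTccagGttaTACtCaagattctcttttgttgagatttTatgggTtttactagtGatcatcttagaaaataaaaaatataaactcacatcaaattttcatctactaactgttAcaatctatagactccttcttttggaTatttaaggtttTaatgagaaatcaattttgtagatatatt

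The same values were taken for other chemoreceptor families. The 208 Vmn1r genes, the receptors of the apical vomeronasal neurons, had a uniqueness of 54.2%, 25.5 MEF and 36.7 mESC intervals per Mb, and 37.0% of them were empty in both lists. The Vmn2r values of 28.0 and 38.8 per Mb had confidence intervals that overlap those of Vmn1r (21.3 to 30.2 and 31.7 to 42.3). The 113 Vmn2r pseudogenes had 19.2 MEF intervals per Mb (14.7 to 24.6) and 25.9 mESC intervals per Mb, a uniqueness of 47.8%, and 46.0% were empty. The confidence interval of the mESC value ends below that of the Vmn2r genes, and those of the MEF values overlap. The 1128 olfactory receptor genes, with a uniqueness of 76.0%, had 37.4 and 48.4 intervals per Mb. Smaller families rested on few intervals and had wide ranges. The 15 Taar genes, which encode amine receptors, had 35.5 MEF intervals per Mb (14.3 to 73.2) and 55.8 mESC intervals per Mb (27.9 to 99.9). The 7 Fpr genes, formyl peptide receptors of which some serve the vomeronasal organ, had 60.2 MEF intervals per Mb (31.1 to 105.2) and 80.3 mESC intervals per Mb (45.9 to 130.4), an mESC range above that of the Vmn2r genes.

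Genes that work with the receptors were described from lists chosen by function. The 12 transduction genes, among them Trpc2 and Gnao1, had 28.1 MEF intervals per Mb (20.2 to 37.9) and 43.4 mESC intervals per Mb (33.5 to 55.4). The 10 genes of MHC class Ib partners, the H2-Mv molecules that accompany V2Rs in some neurons with B2m, had 43.1 and 51.7 per Mb. The 19 class C relatives, such as Casr and the glutamate receptors, had 35.3 and 43.7 per Mb, and the 15 neuron factors and guidance genes had 37.4 and 39.1 per Mb. The ligand families of Esp and Mup genes had 21.6 and 24.9 MEF intervals per Mb, and the 22 Mup genes had a uniqueness of 19.6%. In the per-gene test of the mESC share, 6 class C relatives, 4 transduction genes and 4 neuron factors had enough intervals, and 0 were called, as for the Vmn2r genes.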

How the data were processed

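The authors deposited 1 interval list for each cell type, with a fold per interval that is a linear ratio per the file headers. How that ratio was scaled, which caller was used and how replicates entered it is not given in the sources. Bowtie2 and SAMtools are named in the submitters' processing notes without versions. The notes name the build hg38 and the design text mm10. In all, 0 intervals of either list ended past an mm10 chromosome, so mm10 was used. Coordinates are printed as listed and sequences start at the base after the listed start, which leaves an uncertainty of 1 bp.

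Genes came from GENCODE M21 and sequence from GRCm38.p6. Intervals per Mb used ungapped bases and exact Poisson 95% intervals. Shared meant an overlap of at least 1 bp. Copies were found with blastn (BLAST+ 2.17.0). Coding sequences were compared the same way, over at least 50% of their length. The per-gene test used genes with at least 10 intervals, and the bin test 1 Mb bins with at least 0.5 Mb ungapped. Both used an adjusted 0.05 in SciPy 1.17.1. Both tests were tried on data simulated from their own models with large planted changes, in which the gene counts did not model shared intervals. The outcome is not given here, so their power for smaller changes is not stated. Intervals, genes and bins are not replicates, so p-values describe these lists.

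The members and gene lists were chosen with earlier results of these data known. Named members were the whole family C cluster, the 10 with the most intervals, the 5 longest empty territories, those with an interval within 1 kb of a start, and the 3 smallest p-values. Named intervals were the 3 highest folds in each list, of which 1 in MEFs is not reported here, and the 3 with the most copies. Protein sequences were not used here.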

Additional observations from a re-analysis of the deposited data

How the results depend on the processing

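The density of intervals in member territories stayed below that of the autosomes under every margin, fold threshold and left-out chromosome tried. The density turned above the autosomal one with unique 32-mers as the length and every interval still counted (1.18 times in MEFs and 1.27 times in mESCs). It moved toward the autosomal value with folds at or above the list's median (0.903 and 0.954), without chromosome 7 (0.899 and 0.956) and without the Vmn2r29 to Vmn2r52 cluster (0.911 and 0.982), the last chosen after seeing the data. With a 50 kb margin, 24 members had no MEF and 22 no mESC interval. Requiring overlap of 50% of both intervals lowered the shared share to 40.7% in MEFs and 29.4% in mESCs. Among intervals in 1 list alone the mESC share was 63.8%. Listed copies fell to 0.727% and 1.61% where 50% of the copy had to be covered. They were 2.05% and 4.56% for intervals less than 50% masked (added after seeing the data), and 1.63% in mESCs at 90% identity.

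No 1 Mb bin lay at least 50% inside member territories, so 0 were called there. Of 500 kb bins, 4 met that share and 0 were called in either list. Over the 29 bins of 1 Mb with any member territory, fewer intervals were called in 2 MEF and 3 mESC bins. The shares over all 1 Mb bins were 1.12% and 1.17%. Over the 44 such bins of 500 kb, 4 MEF and 5 mESC bins were called, beside 0.936% and 0.894% of all 4808. These 500 kb bins with any member territory were added after seeing the data. Over all 2403 bins of 1 Mb, 27 MEF and 28 mESC bins had fewer intervals. An exact binomial model with no extra spread gave 146 and 201, and unique 32-mers as the length 5 and 4. Folds at or above the median gave 17 and 18. Of the 4808 bins of 500 kb, 45 and 43 had fewer. The cause of these changes was not tested. The median fold, the per-gene test and the other settings kept their side. No paired analysis was possible because the replicate numbers belong to libraries and each list pools them. Depth is unknown, so an absent interval is not evidence of an inactive fragment.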
